A study of Homo sapiens with 208 samples.

Results

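PC9M2 is a gefitinib-resistant line that was derived from PC9, a line of human lung adenocarcinoma whose EGFR carries an activating deletion in its kinase domain, by long culture in a low amount of the drug. The paper calls it PC9M2 and the sample labels call it PC9GRM2, and it is 1 clone picked among the survivors, so its values describe that clone. This report follows PC9M2 cells that received no gefitinib, no EGF and no serum, and asks how far their gene expression moved on its own over 24 h. The 26 untreated PC9M2 arrays, 1 of the 8 courses of 26 arrays in the series, were chosen by their labels for cell line and treatment. The 5 arrays labelled 0, 0.5, 1, 2 and 3 h (early) were compared with the 5 labelled 20, 21, 22, 23 and 24 h (late), and the 16 hours between them give the course. The series also holds 26 arrays each of PC9M2 with 0.5 μM gefitinib, with 100 ng/ml EGF and with both, and the same 4 courses of PC9, and all of these cells were starved for 48 h first. Each time point was hybridized once to an Agilent 44K array in 1 colour (Cy3), so the hours of a window stand in for replicates and n is a number of hours. Nothing in the labels says that the hours came from separate cultures, so the p-values measure the spread between hours.

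Starvation of growth factors holds many cells before DNA replication, and a cell that enters S phase first raises the genes for replication origins, helicases, polymerases and nucleotides, many of which are targets of E2F factors. Sterol synthesis is controlled by SREBP factors, which are released from the endoplasmic reticulum when membrane cholesterol is low and turn on the whole pathway together. HIF factors accumulate when oxygen falls and raise glucose transport, glycolysis and the hydroxylases of collagen and of HIF itself. These 3 programs, the NF-κB genes that encode chemokines and inhibitors of apoptosis, and the mitotic genes were followed from lists of genes written by hand.

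All levels below are log2 normalised signals of 1 probe per gene, and a difference is the late mean minus the early mean on that scale, so that a difference of 1 is a doubling. Levels are compared within a gene, never between genes. Of 16961 genes with a probe, 12260 were tested, since the scanner software called their probe clearly brighter than background on 13 or more of the 26 untreated arrays. limma's test called 3440 genes higher in the late window (28.1% of those tested) and 3028 lower (24.7%) at an adjusted p under 0.05. Of these, 912 rose (7.44%) and 844 fell (6.88%) by at least 2-fold. All 5 late arrays lay above all 5 early arrays for 2522 genes (20.6%), and below them for 2259 (18.4%). The median difference over all tested genes was 0.03 and the median absolute difference was 0.40. In all 52.8% of the tested genes were called, so the counts in each list are read against 28.1% and 24.7% and not against 0.

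The early and late arrays were similar in depth. Between 29790 and 32304 features were well above background on the early arrays and between 29192 and 31786 on the late arrays, and the 75th percentile of the signal ranged from 536 to 1412 and from 695 to 1267. No tested gene had a saturated spot on these 10 arrays. A slide held a single time point, and slides were scanned on 9 days, with the latest hours scanned first. No scan day held both windows, so time and scan day cannot be told apart from the 2 windows alone. For this reason slopes were also fitted with scan day as a fixed block, so that hours were compared with others of the same day only, and these within-day slopes are given for the lists below. Of all tested genes, 47.8% had a within-day slope above 0, of the 912 genes that rose by at least 2-fold 63.8% had one, and of the 844 that fell by at least 2-fold 19.0% had one. A day held 1 to 4 hours of the course, which left little range. On these slopes limma called 22 genes, and 1047 of 12260 had an unadjusted p under 0.05. Only 1 of the 912 genes and 2 of the 844 were among those called. In the middle of the course the 11 h array stood apart, with a correlation of 0.9405 with the mean of its neighbours in time across genes, against 0.9694 to 0.9963 for the other arrays, and it is in neither window.

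The cells kept the profile of an epithelial tumour line. Of 13 lung adenocarcinoma and epithelial markers with a probe, 11 were well above background on all 26 arrays, and EPCAM, an epithelial adhesion gene, was at 15.40 early and 15.32 late. NKX2-1, the lung lineage factor, was above background on 1 array of 26. The summed level of the epithelial markers was 18.5 to 18.6 on the early arrays and 18.6 on the late ones. PTPRC, CD3D, LUM, PDGFRA, PDGFRB, TEK and EMCN, which mark leukocytes, fibroblasts and endothelium, were above background on 0 of the 26 arrays. Other markers of these cells were not silent. THY1, on the fibroblast list, was above background on 26 arrays (10.26 early, 9.81 late), and so was PECAM1, on the endothelial list (8.10 and 8.36), while VWF was on 25. The summed level of 8 fibroblast markers was 9.90 to 10.8 early and 9.78 to 10.1 late, and that of 7 endothelial markers 8.28 to 8.79 and 8.51 to 8.85. The part of these markers in the results was not tested. The leukocyte list held 14 genes, among them the haemoglobin genes HBB and HBA1, which are not leukocyte markers. Of the 14 genes, 4 were above background on all 26 arrays, and their summed level as a list was 10.3 to 11.0 early and 9.44 to 10.1 late. CSF1R, a receptor of macrophages that some carcinoma cells also express, fell by 2.43 (standard error 0.16, adjusted p = 6.31e-08).

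Promoter sequences of members that rose are given first, as the stretch from 250 bases before to 50 bases after the annotated start of the gene. They come from RefSeq (GRCh38.p14), are written 5′ to 3′ on the strand of the gene, and show a match to a factor's motif in capitals. They are the members with the largest rises among those of each list that had a match, with members on 1 chromosome left out of the choice. For DNA replication the E2F motif TTTNGCGC was searched, on both strands, and the 2 genes shown are POLA2 (chr11:65261712-65262011, + strand), a subunit of the primase complex, and ORC6 (chr16:46689409-46689708, + strand), a subunit of the origin recognition complex.
POLA2: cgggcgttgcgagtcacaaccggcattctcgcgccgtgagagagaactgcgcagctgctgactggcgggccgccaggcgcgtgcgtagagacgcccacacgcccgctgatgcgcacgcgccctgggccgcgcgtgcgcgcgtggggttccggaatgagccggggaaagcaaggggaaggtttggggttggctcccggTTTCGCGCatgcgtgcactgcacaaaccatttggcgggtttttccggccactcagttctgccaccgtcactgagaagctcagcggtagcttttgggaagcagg
ORC6: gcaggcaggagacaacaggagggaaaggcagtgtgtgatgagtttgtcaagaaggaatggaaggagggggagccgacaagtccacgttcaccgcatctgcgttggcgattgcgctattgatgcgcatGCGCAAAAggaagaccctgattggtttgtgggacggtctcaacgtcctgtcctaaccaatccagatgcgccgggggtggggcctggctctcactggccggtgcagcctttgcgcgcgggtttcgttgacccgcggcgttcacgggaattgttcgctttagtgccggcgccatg
The sterol motif TCACNCCAC was found in 1 sterol gene, SREBF2 (chr22:41832855-41833154, + strand), which encodes an SREBP factor.
SREBF2: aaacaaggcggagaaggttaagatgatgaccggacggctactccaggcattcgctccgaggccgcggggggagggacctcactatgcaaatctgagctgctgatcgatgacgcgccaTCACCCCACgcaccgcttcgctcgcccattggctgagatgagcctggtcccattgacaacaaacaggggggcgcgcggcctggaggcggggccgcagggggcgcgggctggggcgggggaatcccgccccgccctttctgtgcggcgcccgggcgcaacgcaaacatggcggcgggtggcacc
The hypoxia motif ACGTGC, which can overlap an E-box (CACGTG), was found in DDIT4 (chr10:72273674-72273973, + strand), an inhibitor of mTOR signalling, and ALDOC (chr17:28576846-28577145, - strand), an aldolase, where the match lies on the strand opposite to the gene and overlaps an E-box.
DDIT4: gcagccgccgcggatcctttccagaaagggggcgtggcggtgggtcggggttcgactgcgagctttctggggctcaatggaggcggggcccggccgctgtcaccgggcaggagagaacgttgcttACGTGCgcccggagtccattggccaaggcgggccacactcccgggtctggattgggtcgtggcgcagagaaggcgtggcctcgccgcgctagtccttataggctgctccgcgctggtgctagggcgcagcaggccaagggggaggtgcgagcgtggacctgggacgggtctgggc
ALDOC: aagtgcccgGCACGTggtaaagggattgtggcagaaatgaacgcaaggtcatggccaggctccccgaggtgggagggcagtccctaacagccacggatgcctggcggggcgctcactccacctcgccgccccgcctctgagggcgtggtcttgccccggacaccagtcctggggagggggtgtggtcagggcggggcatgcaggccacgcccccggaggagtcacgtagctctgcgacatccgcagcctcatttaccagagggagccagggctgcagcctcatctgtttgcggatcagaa
The κB motif, GGG and TTTCC with any 2 bases between them, was found in the chemokine genes CXCL1 (chr4:73869143-73869442, + strand) and CXCL2 (chr4:74099146-74099445, - strand) and in BIRC3 (chr11:102317234-102317533, + strand), an inhibitor of apoptosis.
CXCL1: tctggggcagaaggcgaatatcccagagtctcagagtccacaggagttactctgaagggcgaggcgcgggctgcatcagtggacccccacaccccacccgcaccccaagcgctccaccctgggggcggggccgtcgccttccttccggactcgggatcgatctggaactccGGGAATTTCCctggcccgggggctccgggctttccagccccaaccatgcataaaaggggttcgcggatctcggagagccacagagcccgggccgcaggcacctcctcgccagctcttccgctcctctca
CXCL2: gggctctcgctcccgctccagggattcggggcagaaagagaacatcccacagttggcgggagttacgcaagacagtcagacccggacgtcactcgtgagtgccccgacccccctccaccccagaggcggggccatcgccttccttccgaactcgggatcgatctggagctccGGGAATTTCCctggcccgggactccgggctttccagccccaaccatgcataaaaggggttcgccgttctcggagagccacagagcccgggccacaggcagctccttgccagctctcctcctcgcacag
BIRC3: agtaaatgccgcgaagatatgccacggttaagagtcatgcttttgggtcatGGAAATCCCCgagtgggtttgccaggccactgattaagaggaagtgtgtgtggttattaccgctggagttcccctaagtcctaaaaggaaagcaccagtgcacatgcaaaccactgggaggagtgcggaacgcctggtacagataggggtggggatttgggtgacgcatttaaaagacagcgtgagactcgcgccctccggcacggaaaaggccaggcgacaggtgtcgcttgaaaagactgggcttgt

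The E2F motif was in 15 of 41 replication genes with a promoter sequence (36.6%) and in 1.83% of all 27305 promoters. All 15 rose, but so did 38 of the 41 genes. The κB motif was in 11 of 22 NF-κB genes (50%) and in 1.92% of all promoters. Of these 11 genes 8 rose, and of the 22 genes 13 rose. The hypoxia motif was in 10 of 31 members (32.3%) and in 6.87% of all promoters. All 10 rose, but so did 28 of the 31 members. The sterol motif was in 1 of 18 sterol genes and in 1.15% of all promoters. A match is a description of the sequence and no sign that a factor was bound, and the lists were written partly from knowledge of these factors' targets.

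DNA replication genes rose in nearly all members. Of 51 tested members, 47 rose (28.1% of all tested genes rose), 0 fell and 4 were not called, with a median difference of 1.20. RRM2, the small subunit of ribonucleotide reductase, was at 7.89, 7.38, 7.35, 7.75 and 7.77 on the early arrays and at 11.02, 10.65, 10.19, 10.13 and 9.95 on the late ones. The groups did not overlap, and the late levels were highest at 20 h. The difference was 2.76 (standard error 0.19, adjusted p = 8.27e-08), which is 6.79-fold, and a second probe gave 2.89. ORC1, the largest subunit of the origin recognition complex, was at 6.29, 5.92, 6.44, 6.85 and 6.99 early and at 9.42, 9.24, 9.34, 9.10 and 9.10 late, a rise of 2.74 (standard error 0.18, adjusted p = 6.01e-08). GINS4, of the replicative helicase, was uneven within the late window. It was at 9.79 and 9.19 at 20 and 21 h and at 7.28, 7.24 and 7.13 from 22 to 24 h. All of these lay above the early range of 5.10 to 5.78. The arrays at 20 and 21 h were scanned on another day than those from 22 to 24 h. The within-day slope of GINS4 was -1.29 per 24 h, and the part of scan day in its levels was not tested. GINS2, another helicase subunit, rose from between 10.22 and 10.92 to between 12.44 and 12.60. POLA2 and ORC6, whose promoters are shown above, rose by 1.87 and 1.79. MCM2, of the helicase ring, rose by 1.26 and PCNA, the polymerase clamp, by 1.20 (standard errors 0.13 and 0.08, adjusted p = 2.24e-06 and 8.05e-08). RFC5, RFC2, RFC4 and RFC3, of the clamp loader, rose by 1.19, 1.18, 1.04 and 0.83. PRIM1, POLD3, UHRF1 and POLD2 were the 4 members that were not called, with differences of 0.29, 0.29, 0.26 and -0.26. Within scan days, 39 of the 51 members had a slope above 0 (76.5%, against 47.8% of all genes), with a median of 1.09 per 24 h beside 1.27 over all hours, and 1 member was called.

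**Figure D1:**
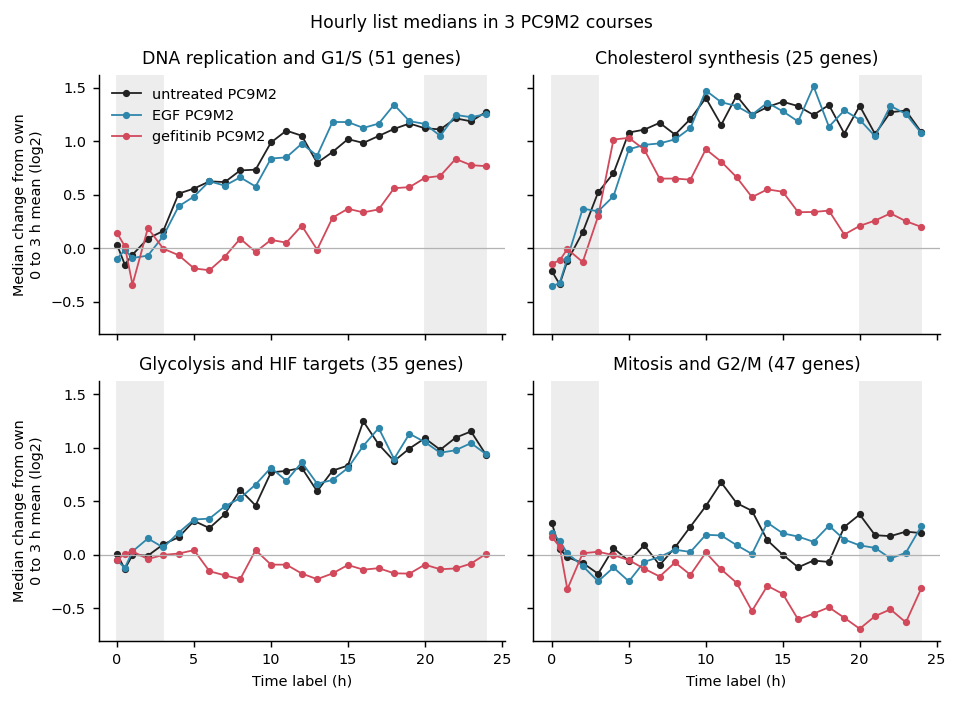
Median over list members of the log2 change from each course's own 0 to 3 h mean (vertical axis) at each time label in hours (horizontal axis), for untreated, EGF-treated and gefitinib-treated PC9M2, with the early and late windows shaded. In the late window the untreated and EGF courses lie above the gefitinib course in all 4 lists, whose late medians without the drug are 1.20, 1.29, 0.99 and 0.16.

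Mitotic genes did not move as a block. Of 47 tested members, 16 rose and 9 fell, beside 28.1% and 24.7% of all tested genes, and the median difference was 0.16. PLK1, a kinase of mitotic entry, fell from 9.65, 9.04, 9.31, 9.47 and 9.67 early to 7.91, 7.55, 7.64, 7.77 and 7.62 late, a difference of -1.73 (standard error 0.14, adjusted p = 2.47e-07). BIRC5, the survivin gene, fell by 1.59 (standard error 0.10, adjusted p = 2.73e-08). CCNB2, ASPM and CENPF, which act in mitotic entry, at the spindle and at the kinetochore, each fell by 1.00. In the other direction MAD2L1, of the spindle checkpoint, rose by 1.18 (standard error 0.11, adjusted p = 1.03e-06), and SGO1, which protects centromeric cohesion, rose by 1.60, although its second probe gave 0.25. CDK1, the mitotic kinase, rose by 0.44 (adjusted p = 0.00318). MKI67, the proliferation antigen, had a difference of 0.14 with a standard error of 0.21 and was not called, and CCNB1, a B-type cyclin, was at 12.73 in both windows. The within-day slope was above 0 in 11 of 47 members. Replication genes were higher late in nearly all members, while the counts of mitotic genes lay nearer to the shares of all tested genes.

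Cholesterol synthesis rose along its whole length. Of 25 tested genes 24 rose and 0 fell, the median difference was 1.29, and MVK, the mevalonate kinase, was the 1 gene not called (0.47, adjusted p = 0.128). HSD17B7, which acts late in the pathway, was at 10.39, 10.19, 10.88, 10.92 and 11.25 early and at 12.78, 12.60, 12.76, 12.75 and 12.69 late. The early levels were highest at 3 h, and the windows did not overlap. The difference was 1.99 (standard error 0.16, adjusted p = 3.77e-07), or 3.97-fold, and a second probe gave 2.02. LSS, which closes the sterol rings, rose by 1.91 (standard error 0.21), with 3 other probes between 1.61 and 1.83. IDI1, an isoprenoid isomerase, rose by 1.58 (adjusted p = 9.92e-07). INSIG1, which holds SREBP factors in the endoplasmic reticulum, rose by 1.48. SREBF2 rose by 0.80 (standard error 0.08). Within scan days 23 of 25 genes had a slope above 0 (92.0%), with a median of 2.10 per 24 h.

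Fatty acid synthesis moved less evenly. Of 13 tested genes 7 rose and 0 fell, with a median difference of 0.49. SCD, the stearoyl-CoA desaturase, rose by 1.95 (standard error 0.17, adjusted p = 7.25e-07), with 2 other probes at 0.48 and 0.97. ELOVL5 and FADS1, an elongase and a desaturase of polyunsaturated fatty acids, rose by 1.45 and 1.27, with second probes at 0.59 and 1.73. Within scan days 11 of the 13 had a slope above 0, with a median of 1.36 per 24 h, beside 0.36 over all hours.

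Glycolysis and HIF target genes rose almost as widely. Of 35 tested members 32 rose and 1 fell, with a median difference of 0.99. DDIT4 was at 13.77, 13.06, 13.25, 13.91 and 13.62 early and at 15.70, 15.66, 15.73, 15.80 and 15.73 late, a rise of 2.20 (standard error 0.13, adjusted p = 2.75e-08), or 4.60-fold. ALDOC was at 9.03, 9.03, 9.25, 9.49 and 9.81 early and at 11.43, 11.25, 11.64, 11.61 and 11.32 late, a rise of 2.13 (standard error 0.15). For both genes the windows did not overlap. SLC2A3, a glucose transporter, rose by 2.45 (standard error 0.28, adjusted p = 6.45e-06), but 1 of its 5 early arrays was not well above background. P4HA1, a collagen prolyl hydroxylase, rose by 1.90, PDK1, which keeps pyruvate out of the mitochondrion, by 1.72, and LDHA, lactate dehydrogenase, by 1.47. CA9, a carbonic anhydrase, had levels of 4.89, 4.88, 5.53, 5.01 and 4.94 early and of 6.39, 6.51, 6.97, 7.01 and 6.76 late (rise 1.68, adjusted p = 6.32e-06), and its mean was still 4.87 from 12 to 15 h. ALDOA, an aldolase, was the member that fell (-0.73, adjusted p = 0.0367), and PFKFB3 was not called (-0.90, adjusted p = 0.0508). Within scan days 25 of 35 members had a slope above 0 (71.4%), with a median of 0.93 per 24 h. P4HA1 was not among them, with a slope of -1.6.

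**Figure D2:**
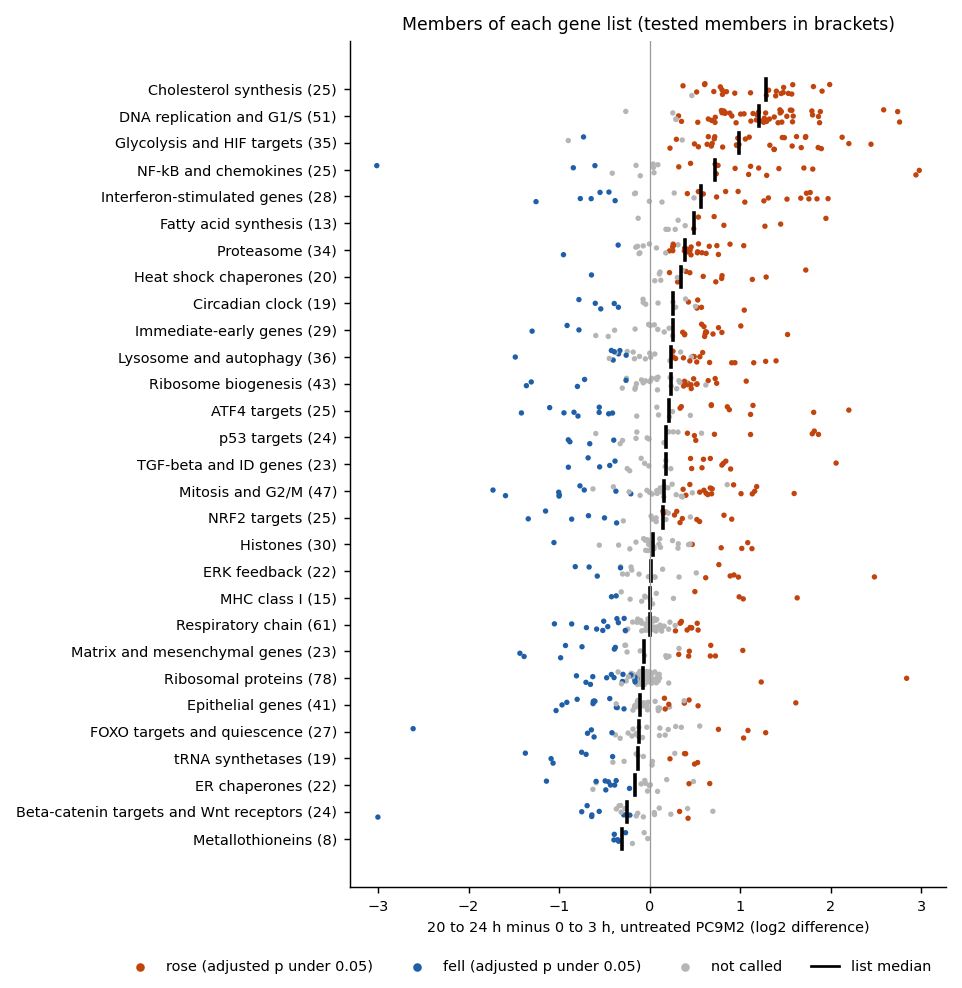
Late minus early difference (log2, horizontal axis) of each tested member of 29 gene lists (rows, number of tested members in brackets), coloured by limma's call, with the list median as a black bar. The cholesterol, DNA replication and glycolysis lists have medians of 1.29, 1.20 and 0.99, and the other lists spread to both sides of 0 or lie nearer to it.

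NF-κB genes rose in 15 of 25 members and fell in 3, with a median of 0.72. CXCL1, which attracts neutrophils, was at 7.41, 6.95, 6.94, 6.93 and 7.35 early and at 9.43, 9.84, 9.99, 10.47 and 10.75 late, a rise of 2.98 (standard error 0.22, adjusted p = 1.23e-07). BIRC3 was at 9.65, 9.58, 9.21, 9.24 and 10.12 early and at 12.39, 12.61, 12.36, 12.58 and 12.59 late, a rise of 2.94 (standard error 0.15, adjusted p = 6.97e-09). Neither gene overlapped between the windows, and CXCL1 was highest at 24 h. CXCL2 rose by 1.80, near background (4 of 5 early arrays were well above it). RELB, a subunit of NF-κB, rose by 1.43 and the feedback inhibitors TNFAIP3 and NFKBIA by 1.29 and 0.45. IL1B, the interleukin 1β gene, went the other way, from 9.31, 8.94, 8.64, 8.49 and 8.57 to 5.59, 5.81, 5.80, 5.83 and 5.84, a fall of 3.02 (standard error 0.16, adjusted p = 8.69e-09). The inflammatory genes of this list thus did not share 1 direction. Within scan days only 12 of the 25 had a slope above 0, though CXCL1 and BIRC3 had slopes of 2.76 and 3.01 per 24 h (adjusted p = 0.756 and 0.493).

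Interferon-stimulated genes rose in 16 of 28 members and fell in 6, with a median of 0.57. The RNA sensors IFIH1 and RIGI rose by 1.97 and 1.76 (standard errors 0.14 and 0.12, adjusted p = 8.43e-08 and 8.27e-08). OAS3 and PARP14 rose by 1.77 and 1.85, but only 3 and 1 of their 5 early arrays were above background. IFITM3, a membrane restriction factor, and OASL, of the OAS family, fell by 0.45 and 1.26. Within scan days 10 of 28 had a slope above 0. Of 15 MHC class I genes 4 rose, among them the peptide transporter TAP1 (0.99) and the immunoproteasome subunit PSMB10 (1.03), and 2 fell.

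Of 34 proteasome subunits 23 rose and 2 fell, with small differences and a median of 0.39. PSMC5, an ATPase of the regulatory particle, rose by 1.04 (standard error 0.13), and PSMD3, of its lid, fell by 0.95 (standard error 0.11, adjusted p = 5.47e-06), with a second probe at -1.26. Within scan days 10 of 34 had a slope above 0. Heat shock chaperones rose in 12 of 20 members and fell in 1, and 12 had a within-day slope above 0. HSPA1A, an inducible HSP70 gene whose sequence is nearly that of HSPA1B, rose by 1.14 after a peak of 15.76 in the 4 to 7 h mean.

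Among genes of protein synthesis, most ribosomal protein genes did not pass the test. Of 78 members 2 rose and 14 fell, and 62 were not called, with a median of -0.08. Within scan days 34 had a slope above 0. The 2 that rose, RPS26 and RPL27A, have other probes that gave -0.61 to -0.34 and -0.04, so their direction depends on the probe. The list of endoplasmic reticulum chaperones also held ATF6 and XBP1, which are not chaperones. Of its 22 members 2 rose and 9 fell. ATF6, a sensor of unfolded proteins, fell by 1.14 (standard error 0.09, adjusted p = 2.82e-07). XBP1 rose by 0.66, with a second probe at 0.18. Within scan days 9 of the 22 had a slope above 0. Among ATF4 targets 10 of 25 rose and 9 fell, with a median of 0.22, and the within-day slope was above 0 in 5 of them, with a median of -0.55 per 24 h. CHAC1, which degrades glutathione, rose by 1.81 and ASNS, the asparagine synthetase, fell by 1.42 from a range of 15.57 to 16.00 to one of 14.00 to 14.80. Of 19 tRNA synthetases 5 rose and 6 fell, and AARS1, WARS1, MARS1 and VARS1, for alanine, tryptophan, methionine and valine, fell by 1.37, 1.09, 1.07 and 0.75. Within scan days 4 of the 19 had a slope above 0.

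Genes of β-catenin targets and Wnt receptors fell in 8 of 24 members and rose in 2, with a median of -0.24. Within scan days the slope was above 0 in 14 of 24, with a median of 0.54 per 24 h, beside -0.24 over all hours. AXIN2, a scaffold of the complex that degrades β-catenin and itself a target of β-catenin, was at 8.07, 8.02, 8.07, 8.24 and 7.71 early and at 5.58, 5.27, 4.87, 4.90 and 4.49 late. The groups did not overlap, and AXIN2 fell by 3.00 (standard error 0.20, adjusted p = 5.38e-08), or 8.02-fold. A second probe gave -0.90, but it was well above background on only 5 of the 10 arrays. DKK1, a secreted Wnt inhibitor, and FZD2, a Wnt receptor, fell by 0.69 and 0.64 (adjusted p = 0.0028 and 2.47e-05). LEF1, a partner of β-catenin, and CTNNB1, β-catenin itself, were not called, at -0.15 and 0.23 with standard errors of 0.12 and 0.22, and the 2 probes of CTNNB1 differed in sign.

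Immediate-early genes of growth factor signalling rose in 14 of 29 members and fell in 3, with a median of 0.25, and within scan days 18 of 29 had a slope above 0. NR4A2, a nuclear receptor, rose by 1.52, with 4 of 5 early arrays above background, and the related NR4A1 fell by 0.91. FOS and EGR1, transcription factors induced within minutes by growth factors, had differences of 0.25 and -0.46 with standard errors of 0.22 and 0.31 and were not called. EGR1 was highest at 0.5 h, at 11.45, and had 9.58 at 3 h. JUN rose by 1.01 (adjusted p = 0.00536), from 11.97 at 0 h and 12.80 to 13.49 in the other early hours to between 13.51 and 14.38 late. Of 22 ERK feedback genes 6 rose and 4 fell, and 10 had a within-day slope above 0. HBEGF, an EGFR ligand, was at 8.74, 8.23, 8.28, 7.81 and 7.55 early and at 10.60, 10.36, 10.68, 10.58 and 10.81 late, a rise of 2.48 (standard error 0.19, adjusted p = 1.75e-07). Its within-day slope was 0.03 per 24 h. DUSP6, an ERK phosphatase, rose by 0.93 (adjusted p = 7.85e-05), while SPRY4, an inhibitor of the pathway, and EGFR itself were not called (-0.12 and 0.11, standard errors 0.11 and 0.13).

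Clock genes rose in 6 of 19 members and fell in 5, and 6 had a within-day slope above 0. PER2, a repressor of the clock, and BMAL1, its activator, fell by 0.60 and 0.39 (adjusted p = 0.0179 and 0.0287), NR1D1, which represses BMAL1, rose by 0.52 (adjusted p = 0.0185), and PER1, NR1D2 and DBP were not called (0.26, -0.07 and -0.07). PER1 dipped between the windows, from 9.38 at 0 h to a mean of 8.03 from 12 to 15 h and 9.68 at 24 h. The cell cycle inhibitor CDKN1A rose by 0.49 (adjusted p = 0.021) and TXNIP, which restrains glucose uptake, by 0.76 (adjusted p = 0.000216). Among p53 targets, 8 of 24 rose and 4 fell, and 11 had a within-day slope above 0. FAS, a death receptor, rose by 1.87, and GADD45A, a growth arrest gene, rose by 1.80. BMF, a pro-apoptotic gene of the FOXO list, fell by 2.61 (standard error 0.18, adjusted p = 6.01e-08), and 4 of the 27 members of that list rose and 5 fell, with a within-day slope above 0 in 7. ID3, a target of BMP signalling, rose by 2.06 (standard error 0.18, adjusted p = 5.08e-07).

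Lysosomal and autophagy genes rose in 16 of 36 members and fell in 7, with GLA, the α-galactosidase, up by 1.40 and SGSH, a sulfatase, down by 1.48. NRF2 targets rose in 10 of 25 and fell in 6, and GCLC, which starts glutathione synthesis, fell by 1.15. Respiratory chain genes rose in 10 of 61 and fell in 11, with a median of 0.00. Ribosome biogenesis genes rose in 15 of 43 and fell in 5. Metallothioneins, whose near-identical copies one probe may not tell apart, rose in 0 of 8 and fell in 5, by 0.34 to 0.39 for the 4 largest, but their within-day slopes had a median of 0.43 per 24 h, above 0 in 6 of 8. Epithelial genes rose in 7 of 41 and fell in 12, the desmosomal PKP2 rising by 1.62 and the splicing regulator ESRP1 falling by 1.03. Matrix genes rose in 7 and fell in 7 of 23, and SNAI1, a repressor of E-cadherin, fell by 1.39. Histone genes rose in 5 and fell in 1 of 30, and H3C2 and H3C4 each have a second probe with a difference below 0. Within scan days, slopes were above 0 in 24 of 36 lysosomal, 9 of 25 NRF2, 20 of 61 respiratory chain, 23 of 43 ribosome biogenesis, 22 of 41 epithelial, 10 of 23 matrix, 11 of 30 histone, 8 of 15 MHC class I and 7 of 23 TGF-beta and ID genes.

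The largest single rises and falls lay outside these lists for the most part. They were taken from the called genes whose windows did not overlap and that were well above background on all 10 arrays. CIB3, of a family of calcium- and integrin-binding proteins, was at 6.54, 6.64, 6.74, 6.65 and 7.14 early and at 9.82, 10.20, 10.72, 11.10 and 11.28 late, a rise of 3.88 (standard error 0.24, adjusted p = 3.27e-08), or 14.7-fold. GPR19, an orphan receptor, rose by 3.76 and SCG2, a secretogranin, by 3.33. PLA2G4C, a phospholipase, rose by 3.25, with a second probe at 2.11 that was well above background on 6 of the 10 arrays. HSD17B6, a steroid dehydrogenase, rose by 3.04, SCNN1G, a sodium channel subunit, by 2.90, and RIBC2, a ciliary protein, by 2.88. FAM184A and PLOD2, a lysyl hydroxylase of collagen, rose by 2.88 and 2.76.

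The falls were as large. EEF1AKMT2, a methyltransferase of a translation elongation factor, was at 10.65, 10.56, 10.29, 10.25 and 10.24 early and at 5.56, 5.66, 5.78, 5.30 and 5.13 late. This was the largest fall among those genes, -4.91 (standard error 0.15, adjusted p = 2.22e-10) or 30.1-fold. ZNF629, a zinc finger gene, was at 13.68, 13.83, 13.61, 13.98 and 13.51 early and at 10.31, 10.34, 10.53, 10.49 and 10.20 late (difference -3.35, with a second probe at -3.09). IL27, a cytokine subunit gene, was uneven late, at 8.17, 8.55, 10.66, 7.50 and 11.55 after 12.72 to 13.29 early, and its mean from 12 to 15 h was 14.26. SDR42E1, a dehydrogenase, fell by 3.36, IFT46, of intraflagellar transport, by 3.30, and TUBGCP3, of the γ-tubulin complex, by 3.23. CDKN2AIPNL fell by 3.25. The mitochondrial genes UQCC3, an assembly factor of complex III, and COQ3, of ubiquinone synthesis, fell by 3.23 and 3.02. BACE1, the β-secretase, fell by 3.10, and PRSS1, a trypsinogen with close paralogs, by 3.02. Within scan days, CIB3 had a slope of 4.90 per 24 h and CDKN2AIPNL one of -6.14, and both were called (adjusted p = 0.0442). PRSS1, with a slope of 4.79 (adjusted p = 0.912), was the only gene of these largest rises and falls whose slope was opposite to its change. Its level was 2.05 at 16 h, between 8.74 at 15 h and 8.73 at 17 h. The part of that 1 array in the slope was not tested.

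**Figure D3:**
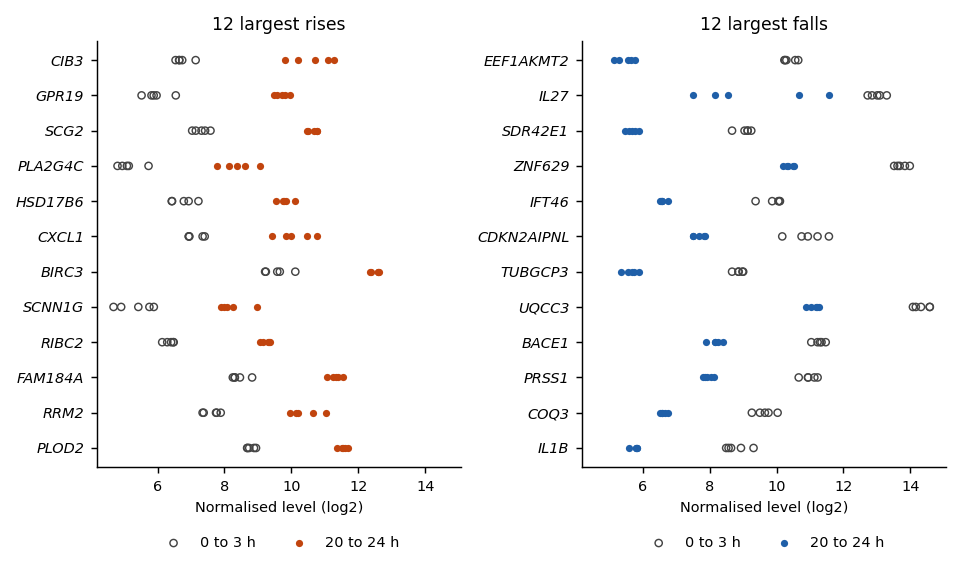
Log2 normalised level (horizontal axis) of the 12 genes with the largest rises and the 12 with the largest falls (rows) on each of the 5 early arrays (open circles) and 5 late arrays (filled circles). The windows do not overlap in any of the 24 genes, and IL27 has the widest spread late, from 7.50 to 11.55.

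A few probes crossed the background. In 7 genes the chosen probe was well above background on all 5 late arrays and on none of the early ones, and in 14 the reverse held. For these probes the fold is a lower bound, the mean of the bright window over the dimmest signal that counts as above background. The probe of CENPI, of the centromere, was at least 7.22-fold higher late, that of DYNC1I1, a dynein intermediate chain, at least 5.36-fold, ABCC11, an efflux transporter, at least 4.95-fold, MOB3B at least 4.07-fold and CRYGC, a crystallin, at least 3.65-fold. The probe of ACSF3, a mitochondrial acyl-CoA synthetase, was at least 5.32-fold lower late, that of TK2, the mitochondrial thymidine kinase, at least 5.18-fold, STK33, a kinase, at least 3.97-fold, CAMP, an antimicrobial peptide, at least 3.73-fold and ANKRD29 at least 3.28-fold. For 4 of these genes a second probe was above background on all 10 arrays, early and late. Its differences were 3.02 for CENPI, 1.49 for MOB3B, -0.90 for ACSF3 and -2.31 for TK2, in the same direction but for MOB3B and ACSF3 smaller than the bound of the chosen probe. A second probe of DYNC1I1 gave 2.40 and was above background on 5 of the 10 arrays.

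The course between the windows was gradual for most of the genes that changed by at least 2-fold. The 912 that rose had covered a median of 28.8% of their difference at 4 to 7 h, 59.3% at 8 to 11 h, 74.0% at 12 to 15 h and 87.3% at 16 to 19 h. The 844 that fell had covered 20.7%, 47.9%, 70.8% and 77.2%. Sterol genes moved earlier than the other two programs. Their list median stood at 1.08 at 5 h, while that of the replication genes stood at 0.56 and that of the glycolysis genes at 0.32. Some genes did not move in 1 direction only. Of the 3440 genes that rose over the windows, 616 (17.9%) were below their early mean from 12 to 15 h, and of the 3028 that fell, 498 (16.4%) were above it. A 4-hour mean in the middle lay at least 1 above both ends in 196 genes and at least 1 below both in 626. The middle arrays had a median of 28975 features above background, against 30863 early and 30193 late, and the part of this in those dips was not tested. The 8 to 11 h means, in these counts and in the shares above, include the 11 h array that stood apart. Its part in them was not tested either.

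Untreated drift was then compared with the same hours of PC9M2 under gefitinib, an inhibitor of the EGFR kinase that was given before 0 h. Each slide held all 4 treatments of 1 time point, so this comparison is made within slides, with 26 of 26 hours on shared slides. limma's test on the differences at matched hours called 3201 genes with a more positive drift without the drug (26.1%) and 3001 with a more negative one (24.5%), and 56.3% of the tested genes had an unadjusted p under 0.05. The median absolute drift was 0.40 without gefitinib and 0.30 with it. Where the early level under gefitinib already differed, the drift starts from another level, so both levels are given. 

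Glycolysis and HIF genes had a list median of -0.09 under gefitinib against 0.99 without it, and 30 of 35 members had the more positive drift without the drug. DDIT4 went from a mean of 13.46 to 14.18 under gefitinib, a drift 1.48 lower than without it (adjusted p = 2.11e-05). ENO2, the neuronal enolase, went from 7.59 to 7.67, 1.79 lower (adjusted p = 6.46e-07). Cholesterol genes had a median of 0.22 under gefitinib against 1.29, and 22 of 25 members differed. HSD17B7 went from 10.79 to 10.98, while it rose by 1.99 without the drug (difference of drifts 1.79, adjusted p = 2.43e-06). The hourly median of the sterol genes under gefitinib stood at 1.03 at 5 h, beside 1.08 without the drug, and the courses parted after that. Replication genes had a median of 0.75 under gefitinib against 1.20, and 26 of 51 members had the more positive drift without the drug and 1 the more negative. RRM2 went from 6.76 to 8.84 under gefitinib (difference of drifts 0.69, adjusted p = 0.0289). Mitotic genes had a median of -0.52 under gefitinib against 0.16, and 35 of 47 members differed in that direction, among them AURKA, a mitotic kinase (11.38 to 10.47 with the drug). Proteasome genes had a median of -0.09 against 0.39, with 22 of 34 members more positive without the drug.

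Single genes diverged further. BIRC3 went from 9.41 to 8.36 under gefitinib, so that its drift without the drug was 3.99 higher (adjusted p = 2.02e-07). CIB3 and SCG2 went from 7.05 to 6.15 and from 6.92 to 6.02 with the drug, differences of 4.78 and 4.23. HRG, a plasma glycoprotein gene, ARL14, a small GTPase, and TERT, the telomerase catalytic subunit, went from 8.93, 10.35 and 10.24 to 6.82, 7.77 and 7.80 with the drug, and were at 9.80 to 10.88, 10.96 to 11.85 and 10.61 to 11.31 late without it. AXIN2 went from 8.44 to 9.90 with gefitinib, against a fall of 3.00 without it, a difference of -4.47 (adjusted p = 2.09e-07). EEF1AKMT2 went from 10.23 to 10.00 with the drug (difference of drifts -4.67, adjusted p = 8.75e-08), and BACE1 went from 11.44 to 12.14 (-3.81). FGFR1, a receptor kinase, went from 6.45 to 9.18 with the drug, SEMA5B, a semaphorin, from 9.48 to 12.13, and ATP6V1B1, a subunit of the vacuolar proton pump, from 7.73 to 11.20. ERK feedback genes went the other way, with 13 of 22 members more negative without the drug. SPRY4 and DUSP6 had early means of 5.85 and 8.22 under gefitinib and late means of 8.96 and 11.84. FOS, of the immediate-early genes, went from 7.20 to 10.51 with the drug. Without the drug SPRY4 and FOS were not called and DUSP6 rose by 0.93.

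**Figure D4:**
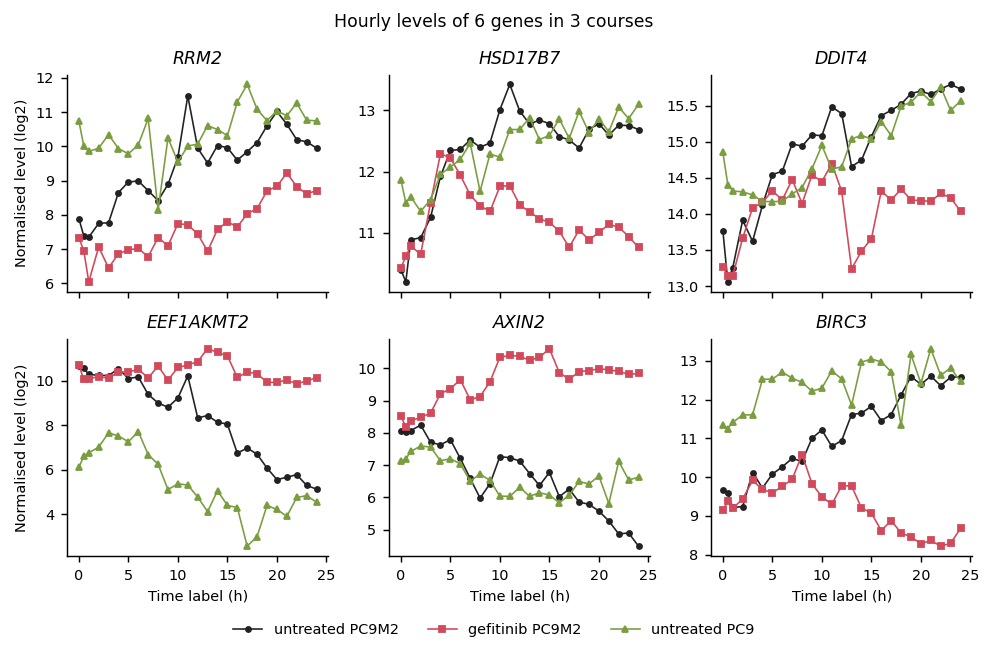
Log2 normalised level (vertical axis) of 6 genes at each time label in hours (horizontal axis) in untreated PC9M2, gefitinib-treated PC9M2 and untreated PC9, 1 array per point. BIRC3, EEF1AKMT2 and AXIN2 diverge between the untreated and gefitinib courses of PC9M2, which share slides, with late gefitinib means of 8.36, 10.00 and 9.90.

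With EGF in place of gefitinib, on the same slides, 0 genes had a more positive drift without EGF and 2 a more negative one (0.0163%), while 2639 genes (21.5%) had an unadjusted p under 0.05. These 2 were RBP7, a retinol-binding protein gene, with drifts of -1.21 without EGF and -0.42 with it, and CHST9, a sulfotransferase gene, with drifts of 1.87 and 2.83 (adjusted p = 0.0469 for both). CHST9 was named after its values were seen, and neither gene was called when any 1 hour was left out. The list medians with EGF were 1.21 for replication, 1.14 for cholesterol, 1.02 for glycolysis and 0.11 for mitosis. CIB3, EEF1AKMT2 and AXIN2 drifted by 3.98, -4.68 and -3.24 with EGF. The median absolute drift was 0.43. These counts do not show that the courses were the same.

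The parental PC9 cells without treatment were the third comparison. The lines shared 0 slides, so line and slide cannot be told apart here. 2669 genes had a more positive drift in PC9M2 (21.8%) and 2059 a more negative one (16.8%), and the median absolute drift in PC9 was 0.48. Replication genes had a median drift of 0.49 in PC9, and 28 of 51 had the more positive drift in PC9M2 and 0 the more negative. RRM2 had an early mean of 10.18 in PC9 and 7.63 in PC9M2, and late means of 10.94 and 10.39, and ORC1 went from 8.67 to 9.48 in PC9. Cholesterol genes had a median of 0.47 in PC9 (16 of 25 more positive in PC9M2) and glycolysis genes one of 0.47 (19 of 35). In P4HA1, ALDOC and PLOD2 the PC9 means were 10.16, 10.56 and 10.31 early and 10.23, 10.56 and 10.46 late, so the late PC9M2 levels of these genes lay near or above those of PC9 while the early levels lay below. CA9 and SPAG4, a nuclear envelope protein gene, went from 7.93 to 6.80 and from 11.20 to 10.63 in PC9, while they rose by 1.68 and 2.09 in PC9M2. HBEGF stood at 10.69 and 10.60 in PC9. DHH, a hedgehog ligand, was uneven in PC9M2, at 10.70, 11.06, 9.62, 10.79 and 7.10 late, and went from 7.45 to 6.30 in PC9. Mitotic genes differed the other way, with 3 of 47 more positive in PC9M2 and 12 more negative, and a PC9 median of 0.40. Ribosomal proteins were more negative in PC9M2 in 22 of 78 and more positive in 6.

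Among the largest more negative drifts, KLHDC9 fell by 2.71 in PC9M2 (standard error 0.14) and went from 6.38 to 6.73 in PC9, and ESPNL, an espin-like gene, fell by 1.13 and went from 6.42 to 8.81. CD86, a costimulatory receptor gene, TNXB, a tenascin, and RAVER1, of RNA splicing, went from 6.09 to 9.27, from 9.13 to 12.44 and from 9.80 to 12.67 in PC9. In PC9M2 they were not called (-1.06, -0.58 and -0.30, standard errors 0.56, 0.35 and 0.28), with CD86 at 5.86, 9.26, 7.26, 8.87 and 8.86 early, and TNXB and RAVER1 have other probes with differences above 0. The 3 comparisons share the untreated PC9M2 arrays, so their counts are not independent of each other.

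**Figure D5:**
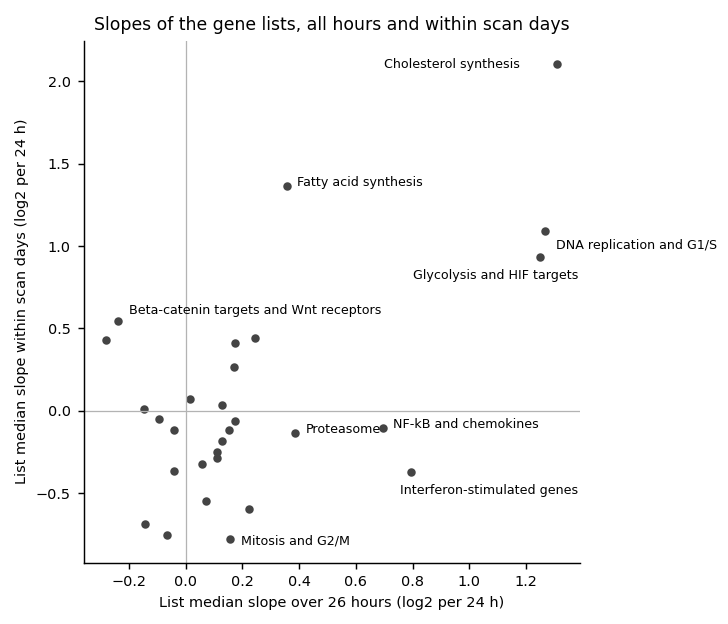
Median slope of the members of 29 gene lists (points) over all 26 hours (horizontal axis) and with scan day as a fixed block (vertical axis), both in log2 per 24 h. Cholesterol synthesis, DNA replication and glycolysis have medians of at least 0.93 on both axes, while the NF-κB, interferon and proteasome lists have positive medians over all hours and medians below 0 within scan days.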

How the data were processed

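Expression was measured on Agilent 44K arrays, 26 of them of untreated PC9M2. The authors extracted spot intensities with Feature Extraction (version 10.5.1.1 per the file headers), and the deposited intensity values were background-subtracted but not normalised between arrays. The authors also deposited a normalized table on the log2 scale, which served as an alternative. As in the study's methods, signals of non-control features were quantile normalised over all arrays and the probe with the largest variance stood for a gene. A floor of 1 and the log2 step were set here. Of 41000 probes 24794 were named through RefSeq accessions. Scanner outliers (30 values on the 10 arrays of the windows) were left out. The replacement of outlying time points from a smoothed curve, named in the methods, was not done. Genes well above background on at least 13 of 26 arrays were tested with limma 3.58.1 (R 4.3.3), two-sided, with Benjamini-Hochberg adjustment at 0.05. Drifts were compared through differences at matched hours. The steps were tested on simulated data in which arrays were independent and had no scan-day effect. That test therefore cannot show how scan day or likeness between neighbouring hours acts on the calls. The number of arrays limits the precision. Named genes were the 12 largest rises and falls without overlap, the leading and defining members of each list, genes that crossed the background, and the largest differences in drift. The members, the lists and the tests were chosen with earlier results of these data known.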

Additional observations from a re-analysis of the deposited data

Results flagged for a closer look

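In 19 of 372 groups of 5 arrays 1 array lay far from the other four by Dixon's test, and chance gives about 1 in 20. Among the early arrays, the 0 h level was the highest for ABCC11 (3.12) and the lowest for H1-3 (7.815). The 0.5 h level was the lowest for HSPA1A (12.47). The 1 h level was the highest for CA9 (5.528) and the lowest for ATP6V1B1 (6.537), NDUFC2 (8.096) and TGFBR1 (5.153). The 2 h level was the lowest for ELOVL5 (10.33). The 3 h level was the highest for HSPA4L (9.719) and LEF1 (11.04) and the lowest for OAS3 (3.601). Among the late arrays, the 20 h level was the highest for ERAP2 (5.563) and the lowest for IL1B (5.594). The 22 h level was the highest for BMP4 (10.44) and COL5A1 (6.189), and the 23 h level for IFT46 (6.744) and NAPSA (8.687). The 24 h level was the lowest for ERRFI1 (7.212) and FOS (9.445).

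The drift itself differed between courses by limma's test of the difference. It was more positive in untreated PC9M2 than in untreated PC9 for 2669 genes and more negative for 2059. It was more positive without gefitinib than with it for 3201 genes and more negative for 3001, and more negative without EGF than with it for 2 genes.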

How the results depend on the processing

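No scan day held both windows, so the windows could not be compared within a day. With scan day as a fixed block, the slope over 26 hours called 20 genes higher and 2 lower, with 1 replication gene and 0 cholesterol, glycolysis and HIF, proteasome, mitotic (in either direction) or Wnt genes. This setting, and the settings with 20 and 21 h or 22 to 24 h as the late window, were chosen after seeing the data. With scan day as a random block 5890 genes were called, all of them among the 6468. With 20 and 21 h only as the late window, 2177 genes were higher, 14 proteasome genes rose and 5 Wnt genes fell. Requiring at least 2-fold as well left 912 genes higher and 844 lower, 14 cholesterol, 17 glycolysis and HIF and 1 proteasome gene that rose, 5 mitotic genes that rose and 4 that fell, and 1 Wnt gene that fell. It left 1163 and 766 genes with a more positive and more negative drift than PC9, 828 and 1148 against gefitinib, and 0 more negative than EGF.

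Leaving out each hour in turn gave 3116 to 3490 genes higher and 2793 to 3065 lower, and 0 genes with a different drift from EGF. The EGF counts (more positive and more negative) were 2 and 1 without pairing, 8 and 7 with 0 to 5 h against 19 to 24 h, and 4 and 7 with the mean of all probes. With normexp 4 were more positive, and 0 were more negative with 75th percentile scaling, no filter or a floor of 16. The cause was not tested. With the probe of the highest mean, the differences of H3C2 (-0.0673), H3C4 (-0.184), POLR1B (0.07525), RPL27A (-0.0401) and RPS26 (-0.341) changed sign. The remaining values of named genes were counted under the alternatives other than the fixed block. Of these, 4280 stayed on the same side of the threshold, 135 were no longer called and 12 became called. The 4280 include any value that changed sign but was called neither in the main result nor in the alternative. With scan day as a fixed block the adjusted p of the named genes was under 0.05 for CIB3 and CDKN2AIPNL (0.0442) and for no other. No paired analysis was possible because, for the late against the early window, each hour has 1 array and nothing in the labels ties an early to a late hour. The drift comparisons were paired by hour.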
